A study of Mus musculus with 4 samples.

Results

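Vip interneuron nuclei of the mouse cortex and hippocampus were taken from a single-nucleus RNA-seq (snRNA-seq) data set by a rule on unique molecular identifiers (UMIs), the tags that count captured RNA molecules. A nucleus was a member when it had more than 600 detected genes, under 5% mitochondrial UMIs, at least 3 UMIs of Gad1 and Gad2 together, at most 1 of Slc17a7, fewer than 5 of Sst, at least 3 of Vip and at least 1 of Adarb2. The rule found 201 of 36094 nuclei that passed the gene and mitochondrial limits, and these 201 were among 2562 GABA nuclei, which met the Gad1, Gad2 and Slc17a7 limits. The study compared mice with neurons that lack SEL1L with their floxed controls. Both genotypes carry the floxed Sel1L allele on both chromosomes. In the mice labelled Sel1L Syn-Cre (Sel1L SynCre here) a Cre recombinase driven by the Synapsin I promoter, which is active in postmitotic neurons, acts on that allele, and the mice labelled Sel1L flox/flox (Sel1L fl/fl here) are the controls. Cortex and hippocampus came from 2 mice of each genotype at 5 weeks of age, with 1 mouse per library. Each p-value therefore measures the spread between 2 mice and 2 mice, and nuclei of 1 mouse were never counted as replicates.

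Vip interneurons are inhibitory cells that arise in the caudal ganglionic eminence and often contact other interneurons, above all those that release somatostatin, so that their firing relieves pyramidal cells of inhibition. They respond to serotonin, acetylcholine and noradrenaline, and subsets carry cholecystokinin, calretinin or choline acetyltransferase. SEL1L keeps the ubiquitin ligase HRD1 (gene Syvn1), itself a protein of the membrane of the endoplasmic reticulum (ER), stable. The pair sends misfolded proteins to the proteasome in ER-associated degradation (ERAD). The unfolded protein response (UPR) raises ER chaperones and ERAD factors when misfolded proteins build up.

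The 4 libraries held 122870443 and 76617523 UMIs (Sel1L fl/fl replicates 1 and 2) and 75227337 and 74082610 UMIs (Sel1L SynCre replicates 1 and 2). Members numbered 64, 43, 49 and 45 in that order, which is kept for every list of 4 values, and their summed UMIs came to 603704, 440899, 487961 and 420993. The median member held 8544.5, 9224, 9517 and 8591 UMIs, so depth per nucleus was alike across the libraries. Between 9 and 32 barcodes of kept nuclei were shared by any pair of libraries, and 0 by members. The transcript of the Cre gene, which the deposited tables list as its own feature, went against a label. In GABA nuclei with fewer than 3 Vip UMIs (2360 nuclei, called other GABA nuclei here) it had 193, 0, 95 and 96 UMIs, so the library labelled Sel1L fl/fl replicate 1 carried Cre at 17.96 UMIs per 1000000 UMIs of its class (CPM), beside 16.48 and 16.32 CPM in the SynCre libraries. Sel1l and Derl3 in those nuclei grouped this library with the other control: Sel1l stood at 98.1 and 100 CPM in the fl/fl libraries against 329 and 240 CPM, and Derl3 had 7 and 0 UMIs against 341 and 229. The libraries are called by their labels below, and main results are also given without that library. Xist had 0, 727, 0 and 624 UMIs in members, so each genotype held 1 library with Xist and 1 without.

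The label of the nuclei was checked against markers that the rule did not use. Igf1, a growth factor of Vip cells, stood at 475, 410.5, 404 and 435 CPM in members, and no library of gated Sst, Pvalb or Lamp5 nuclei (122, 77 and 103 nuclei) passed 189 CPM. Prox1, a transcription factor of interneurons from the caudal eminence, stood at 310, 313, 275 and 302 CPM, above 162 CPM as the highest library of the other classes. Calb2, which encodes calretinin, had 39.8, 34.0, 22.5 and 57.0 CPM, and the serotonin receptor gene Htr3a had 19.9, 6.80, 51.2 and 28.5 CPM, each above every other gated class (18.9 and 5.12 CPM at most). Lhx6, which marks cells of the medial eminence, had 0 to 6.63 CPM against 36.7 to 56.8 in Sst nuclei. The markers thus fit the name Vip interneuron. Members at the Vip threshold of 3 UMIs (33 nuclei) had 366 CPM of Igf1 and 334 of Prox1, and the 24 nuclei just outside it, with 2 Vip UMIs, had 313 and 247 CPM. Markers of excitatory neurons, oligodendrocytes, their precursors, astrocytes, microglia and endothelium, summed, reached 5 UMIs in 22, 12, 14 and 10 members. Such nuclei are those said below to hold markers of other classes. Markers of Sst, Pvalb and Lamp5 neurons were not counted for this. The 7 oligodendrocyte markers summed to 202, 70.3, 30.7 and 26.1 CPM in members, with 46, 8, 6 and 5 UMIs of Mbp, and the sums of the genotypes did not overlap. Opalin was at 0 UMIs in both SynCre libraries and Mal in 1 library of each genotype. The part of oligodendrocyte RNA in the comparison of genotypes was not tested.

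A set of 12 genes outside the rule separated members most widely from the other gated classes, among genes with a mean of 50 CPM or more over the 4 Vip libraries. Such genes describe the cells and were not tested, because the cells were chosen by expression. Grpr, the gastrin-releasing peptide receptor, had 61.3, 88.5, 53.3 and 105 CPM in members and 0 UMIs in all 12 libraries of the other classes. Sema5b, a semaphorin, stood at 181, 156, 180 and 181 CPM, and its lowest Vip library was 11.8-fold above the highest of another class. Htr2c, which encodes a serotonin receptor, had 323, 433, 439 and 297 CPM, 7.25-fold by the same measure. Angpt1, a ligand of the endothelial receptor TIE2, held 195, 159, 158 and 166 CPM and Fbln2, an extracellular matrix protein, 72.9, 81.7, 92.2 and 59.4. Npy1r, the receptor for neuropeptide Y, had 82.8, 107, 86.1 and 90.3 CPM, and Wnt5b, a secreted WNT ligand, 118, 118, 131 and 200. The other genes (Gm39185, Cpne2, Dach2, Cp and Dennd2a) ranged from 3.63-fold to 5.78-fold. All 12 were present in both genotypes, and none of them was called between genotypes in members.

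**Figure D1:**
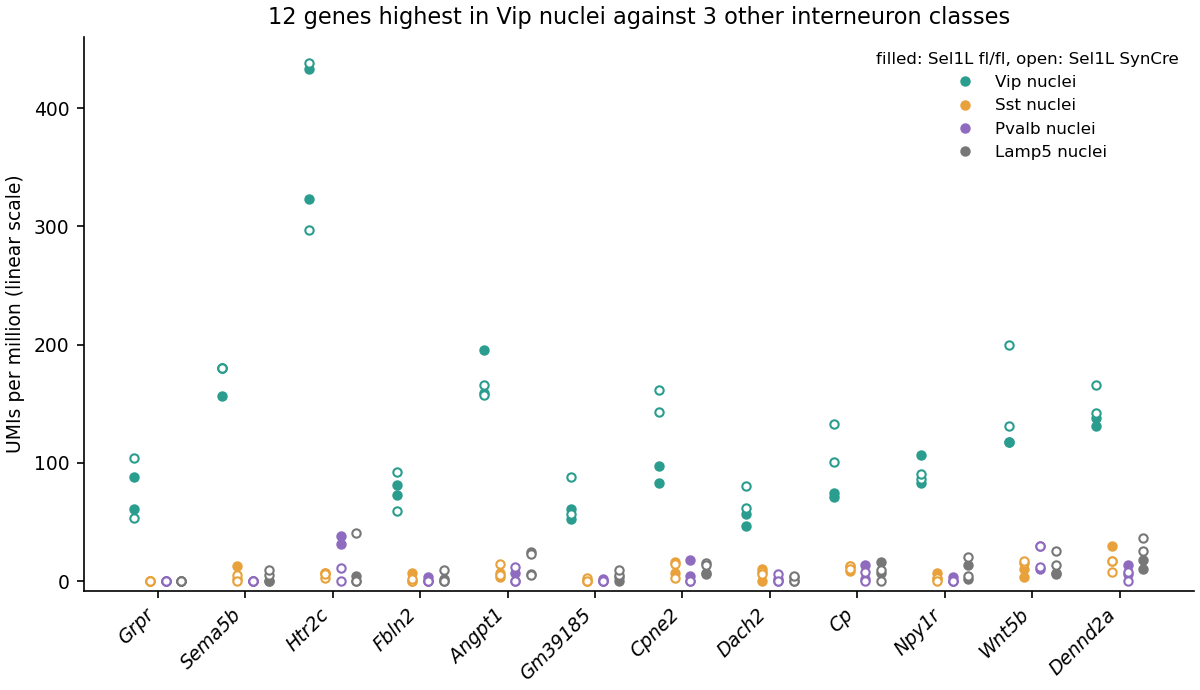
Levels of the 12 genes that separate Vip nuclei most widely from Sst, Pvalb and Lamp5 nuclei, in CPM on a linear scale. There is 1 point per library and class. Colour gives the class, and points are filled for Sel1L fl/fl and open for Sel1L SynCre. Each gene's Vip points lie above the points of every other class, and Grpr has 0 UMIs in all 12 libraries of the other classes.

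The list of Vip neuron identity genes and peptides held 31 genes of the files, and 22 of them had at least 5 CPM in members. Synpr, which encodes the synaptic vesicle protein synaptoporin, had 1738, 1964, 1762 and 1660 CPM, and Pcdh15, a cadherin gene, 1183, 1082, 1068 and 1200. Synpr was also high in Sst nuclei (929 to 1202 CPM) and at 45.5 CPM or less in Pvalb and Lamp5 nuclei. Cnr1, the cannabinoid receptor, had 373, 293, 592 and 335 CPM, and Crh, corticotropin-releasing hormone, had 33.1, 27.2, 57.4 and 42.8 CPM against at most 2.11 CPM elsewhere. Chat, which makes acetylcholine, had 26.5, 18.1, 28.7 and 35.6 CPM and 0 UMIs in the other gated classes. Tac2, the neurokinin B precursor, had 43.1, 47.6, 57.4 and 40.4 CPM and Penk, the enkephalin precursor, 21.5, 24.9, 16.4 and 33.3. Npy2r, a receptor for neuropeptide Y, had 59.6, 38.6, 49.2 and 47.5 CPM against at most 4.51 elsewhere, and the chemokine gene Cxcl14 had 49.7, 22.7, 67.6 and 42.8. Rxfp1, a relaxin receptor, ranged from 30.9 to 113 CPM over the 4 libraries, Npy from 23.2 to 41.0, Pthlh from 3.31 to 24.9, Crispld2 from 2.27 to 30.7 and Calcrl from 2.38 to 9.94. Pdyn, Tac1 and Chrna2, genes of other interneurons, had 0 UMIs in members.

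Peptide and marker genes were each found in a part of the nuclei. Igf1 had at least 1 UMI in 175 of 201 members, Cck in 61, Crh in 47, Tac2 in 46, Calb2 in 45, Htr3a in 34, Penk in 31 and Chat in 24. Calb2 and Cck were found together in 13 nuclei, and 5 members had none of these 8 genes. Unthinned, Cck was also found in 12.7% to 15.7% of oligodendrocyte nuclei, which should lack it, and the other 7 genes in at most 1.32% of them. The part of free RNA in the nuclei with Cck, or with both genes, was not tested. Shares of nuclei with a UMI depend on depth, so each member was also thinned to 2000 UMIs, which left out 0 members. At that depth Igf1 was found in 48.4%, 44.2%, 57.1% and 53.3% of members and in at most 0.394% of oligodendrocyte nuclei (median depths of 3451, 2745, 2978 and 2718 UMIs before thinning). Tac2 was found in 7.81%, 16.3%, 4.08% and 4.44% of members, Crh in 3.12%, 6.98%, 8.16% and 4.44%, and Calb2 in 4.69%, 6.98%, 4.08% and 11.1%. Cck was found in 6.25%, 18.6%, 16.3% and 15.6% of members, beside 8.27% to 11.01% in oligodendrocyte nuclei, which should lack it, so the share of the first fl/fl library was no higher than background. Htr3a at that depth was found in 1.56% and 0% of fl/fl members and in 6.12% and 6.67% of SynCre members, and unthinned in 12.5%, 4.65%, 24.5% and 26.7%. At 4000 UMIs the Htr3a shares were 8.20% and 4.76% against 16.7% and 6.82%, so the genotypes overlapped at that depth and not at the others. Htr3a had 12, 3, 25 and 12 UMIs in all and did not pass the test given with the identity list.

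Vip nuclei took similar shares of the GABA nuclei in both genotypes. They were 7.03% (Wilson 95% interval, 5.54 to 8.87) and 8.14% (6.102 to 10.8) of the GABA nuclei in the fl/fl libraries, and 8.73% (6.67 to 11.4) and 8.01% (6.04 to 10.5) in the SynCre libraries. The groups overlapped, with means of 7.58% ± 0.791 and 8.37% ± 0.514 (SD, n = 2 mice each), a difference of 0.786 percentage points (exact permutation test, two-sided, p = 0.667, where 0.333 is the smallest p that 2 against 2 allows). Without the fl/fl library that carried Cre the difference was 0.227 points. Of all kept nuclei, members made up 0.514% ± 0.00565 and 0.615% ± 0.0104, and these shares did not overlap (exact permutation test, p = 0.333). Kept oligodendrocyte nuclei numbered 1681, 1023, 302 and 267 in the same libraries, so the denominator differed between genotypes, and the part of that in the second share was not tested. Since the rule counts Vip UMIs, fewer Vip cells and less Vip RNA per nucleus cannot be told apart. The intervals cover counting error only.

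Between genotypes, 3 of 7020 genes tested in the summed UMIs of members passed an adjusted p of 0.05 (0.0427% of the genes tested), 1 higher in SynCre (0.0142%) and 2 lower (0.0285%). The test was edgeR's quasi-likelihood test with Benjamini-Hochberg adjustment over all genes tested, and levels in CPM here are scaled by its TMM factors. At an unadjusted p under 0.05 there were 554 genes (7.89%), and the 2 genotypes did not overlap in 37.6% of the genes tested. The long noncoding RNA 1700016P03Rik (ENSMUSG00000085609, GRCm38 chr11:75172560-75177633, plus strand) is the host transcript of miR-212 and miR-132. It had 17, 8, 56 and 76 UMIs, or 28.4, 18.1, 117 and 177 CPM. Both SynCre libraries stood well above both fl/fl libraries, and the transcript rose from 23.2 ± 7.24 to 147 ± 42.6 CPM (mean ± SD of 2 mice). This was 6.07-fold, or 2.60 on the log2 scale (SE 0.31, adjusted p = 0.00174). UMIs of it were found in 13 of 64, 7 of 43, 25 of 49 and 33 of 45 members, so the rise was spread over many nuclei. It also rose in other GABA nuclei of the same mice, by 2.70 (log2, adjusted p = 0.00221), and the difference between the changes was 0.12 (adjusted p = 0.976). The log2 fold change was 2.99 (adjusted p = 1.62e-09) without the fl/fl library that carried Cre. It was 3.02 (adjusted p = 0.0865) without members that held markers of other classes, and 3.34 (adjusted p = 0.256) with the libraries thinned to equal totals. The gene overlaps Ovca2 on the opposite strand, and strand use in the counting is not given in the sources used here.

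Of 4 mature microRNAs inside the transcript that rose, the 3p arms are shown because they share a seed. The 5p arms, whose seeds differ from it and from each other, are not shown. The sequences come from RefSeq for GRCm38.p6, 5′ to 3′, with the seed (bases 2 to 8) in capitals. MicroRNAs themselves were not measured.
mmu-miR-132-3p: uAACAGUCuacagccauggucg
mmu-miR-212-3p: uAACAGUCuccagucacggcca
The first lies at chr11:75173723-75173744 and the second at chr11:75173443-75173464, both on the plus strand. The seed AACAGUC is the same in both, so they belong to the same seed family.

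Sgcz (chr8:37522298-38661508, minus strand) was among the genes that fell. It encodes zeta-sarcoglycan, a membrane protein of the dystrophin complex, and had 422, 333, 180 and 166 UMIs, or 704, 754, 375 and 386 CPM. The fl/fl libraries lay well above the SynCre libraries, and the log2 fold change was -0.94 (SE 0.16, adjusted p = 0.0399). In the first fl/fl library 134 of the 422 UMIs came from 1 nucleus and 41 of 64 members had a UMI. In other GABA nuclei of the same mice Sgcz fell by 0.83 on the log2 scale (adjusted p = 0.0187). Without members that held markers of other classes the value was -0.71 (adjusted p = 0.609), and without the fl/fl library that carried Cre it was -0.98 (adjusted p = 0.00156). With a minimum of 5 Vip UMIs per nucleus the adjusted p was 0.350. A predicted gene, Gm40493, overlaps Sgcz on the opposite strand.

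**Figure D2:**
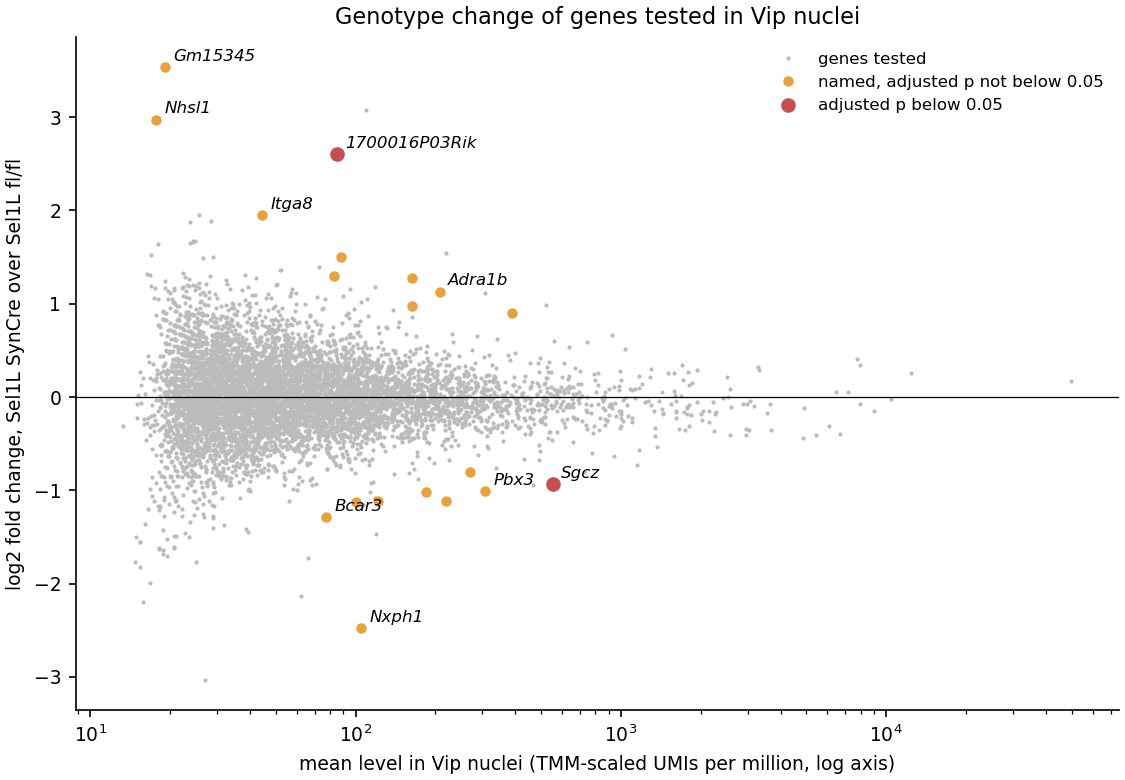
Change between genotypes in Vip nuclei for genes tested outside the rule and reported here, as log2 fold change of Sel1L SynCre over Sel1L fl/fl (y axis) against mean level (x axis, log scale). Genes past an adjusted p of 0.05 are drawn in red, 1700016P03Rik at 2.60 and Sgcz at -0.94.

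The genes of next smallest p did not pass, and their values are given as such. Adra1b, the alpha-1B adrenergic receptor, had 85, 52, 159 and 103 UMIs (log2 fold change 1.13, SE 0.21, adjusted p = 0.0638). Itga8, an integrin subunit, had 11, 8, 40 and 25 UMIs (1.95, SE 0.36, adjusted p = 0.0638). Trpm3, a cation channel, had 183, 103, 219 and 239 UMIs (0.90, SE 0.18, adjusted p = 0.0762). In none of these did the genotypes overlap, which held for 37.6% of all genes tested. Mir670hg, a host transcript of miR-670 and miR-129-2, had 73, 29, 113 and 98 UMIs (1.27, adjusted p = 0.0657). March3, a ubiquitin ligase, had 34, 15, 80 and 41 UMIs, and Gm15345, which lies antisense to it, had 2, 1, 23 and 10, so reads of the pair may be mixed. The remaining genes on the higher side were Nhsl1 at 2.97, Adam12 at 0.97 and Reln at 1.30 (log2), with adjusted p from 0.0762 to 0.111.

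On the lower side, Phlpp1, a phosphatase that acts on AKT, had 102, 72, 41 and 29 UMIs (log2 fold change -1.12, SE 0.22, adjusted p = 0.0762). Gria3, an AMPA receptor subunit, had 121, 129, 52 and 58 UMIs (-1.01, SE 0.22, adjusted p = 0.0991). Pbx3, a homeodomain transcription factor, had 205, 212, 80 and 104 UMIs (-1.01, SE 0.21, adjusted p = 0.0866). In CPM the genotypes did not overlap for these genes, but for Pbx3 (342, 480.0, 166 and 242 CPM) and Gria3 (202, 292, 108 and 135 CPM) the fl/fl libraries lay further apart from each other than from the nearest SynCre library, and none passed the test. Lin7a, a scaffold of synaptic membranes, had 87, 58, 34 and 24 UMIs (-1.12), Bcar3, a signalling adaptor, 63, 51, 24 and 17 (-1.29), Thsd7b 204, 115, 82 and 46 (-1.11) and Plxdc2 202, 154, 89 and 89 (-0.81). Nxph1, a neurexin ligand of other interneuron classes, had 54, 118, 6 and 22 UMIs (-2.48, adjusted p = 0.0762), but 73 of the 118 UMIs in the second fl/fl library lay in 1 nucleus.

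Sel1l, the targeted gene (chr12:91806043-91849157, minus strand), differed in its change between Vip nuclei and Sst, Pvalb and other GABA nuclei. In members it had 69, 40, 39 and 22 UMIs, or 114, 90.7, 79.9 and 52.3 CPM without TMM scaling, the scale of the class comparison. The SynCre libraries lay below the fl/fl libraries, by a log2 fold change of -0.63 (SE 0.27, unadjusted p = 0.0313, adjusted p = 0.585), which did not pass, and by -0.44 (adjusted p = 0.828) without the fl/fl library that carried Cre. UMIs counted at the 3′ end of a transcript do not show whether the floxed exon is present. In Sst nuclei of the same mice Sel1l had 84.4, 106, 381 and 228 CPM, in Pvalb nuclei 69.4, 102, 396 and 242, in Lamp5 nuclei 127, 118, 225 and 194, and in other GABA nuclei 98.1, 100, 329 and 240. The SynCre libraries of those classes thus stood above the fl/fl libraries, and those of Vip nuclei did not. In the SynCre libraries Sel1l CPM were 4.41 times as high in Sst nuclei as in Vip nuclei (counting interval 3.32 to 5.93) and 4.23 times as high in other GABA nuclei (3.29 to 5.55).

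The difference between classes in the Sel1l change was tested with the library as a block, in 1 model of the 4 gated classes and, for other GABA nuclei, in a separate model of those and Vip nuclei. It was 2.27 (log2, SE 0.36, adjusted p = 0.00826) for Sst minus Vip nuclei, 2.502 (SE 0.37, adjusted p = 0.00685) for Pvalb minus Vip nuclei and 2.14 (SE 0.25, adjusted p = 0.0142) for other GABA minus Vip nuclei. Genes past the threshold numbered 4 of 8712 (0.0459%), 9 of 8712 (0.103%) and 6 of 13949 (0.043%) in these comparisons, against 8.03%, 7.27% and 6.85% at an unadjusted p under 0.05. Sel1l was the only gene found in all 3, which share the Vip libraries, and other GABA nuclei include the Sst and Pvalb nuclei, so they are not separate comparisons. For Lamp5 minus Vip nuclei the Sel1l difference was 1.35 (SE 0.37, adjusted p = 0.435), which did not pass, and 0 of 8712 genes passed (0%), with 539 (6.19%) at an unadjusted p under 0.05 by edgeR and 107 by DESeq2. The size of the Sel1l difference held when any library was left out, but its adjusted p did not. Without the fl/fl library that carried Cre it was 1.92 (adjusted p = 0.226) against Sst, 2.01 (adjusted p = 0.158) against Pvalb and 1.91 (adjusted p = 0.778) against other GABA nuclei. Without SynCre replicate 1 it was 2.22 (adjusted p = 0.127), 2.496 (adjusted p = 0.122) and 2.24 (adjusted p = 0.722), and without fl/fl replicate 2 it was 2.55 (adjusted p = 0.0749), 2.90 (adjusted p = 0.0206) and 2.29 (adjusted p = 0.796). Without SynCre replicate 2 it was 2.33 (adjusted p = 0.04999), 2.51 (adjusted p = 0.0360) and 2.06 (adjusted p = 0.831). Against Sst nuclei the call was also lost with DESeq2 (2.25, adjusted p = 0.345), after thinning to equal totals (2.22, adjusted p = 0.203) and without nuclei that held markers of other classes (2.48, adjusted p = 0.0512), and against Pvalb nuclei with DESeq2 (2.47, adjusted p = 0.0618).

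Cre and Derl3 were also lower in Vip nuclei than in Sst, Pvalb and other GABA nuclei of the SynCre mice. Cre had 0, 0, 0 and 2 UMIs in members, 17, 0, 11 and 11 in Sst nuclei and 6, 0, 3 and 1 in Lamp5 nuclei. In SynCre replicate 2 its level in Lamp5 nuclei, 4.51 CPM, was no higher than the 4.75 CPM in members. Over the SynCre libraries Cre CPM were 11.7 times as high in Sst nuclei as in Vip nuclei (counting interval 2.88 to 103) and 7.45 times as high in other GABA nuclei (2.04 to 62.0). Derl3, which encodes an ERAD channel protein and is a UPR target, had 0, 0, 1 and 0 UMIs in members, and a count of 0 in the fl/fl members allows up to 2.87 CPM. In Sst nuclei it had 0, 0, 39 and 38 UMIs, in Pvalb nuclei 1, 0, 16 and 8, and in Lamp5 nuclei 0, 0, 2 and 4. Derl3 CPM in SynCre were 81.9 times as high in Sst as in Vip nuclei (14.3 to 3276), and 44.5 times as high in other GABA nuclei (7.95 to 1760). These intervals cover counting error only, rest on 2 Cre UMIs and 1 Derl3 UMI in Vip nuclei, and are no test over mice. Low Cre transcript in a nucleus does not show whether the floxed allele was recombined earlier, and whether Cre level had a part in the Sel1l difference was not tested.

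**Figure D3:**
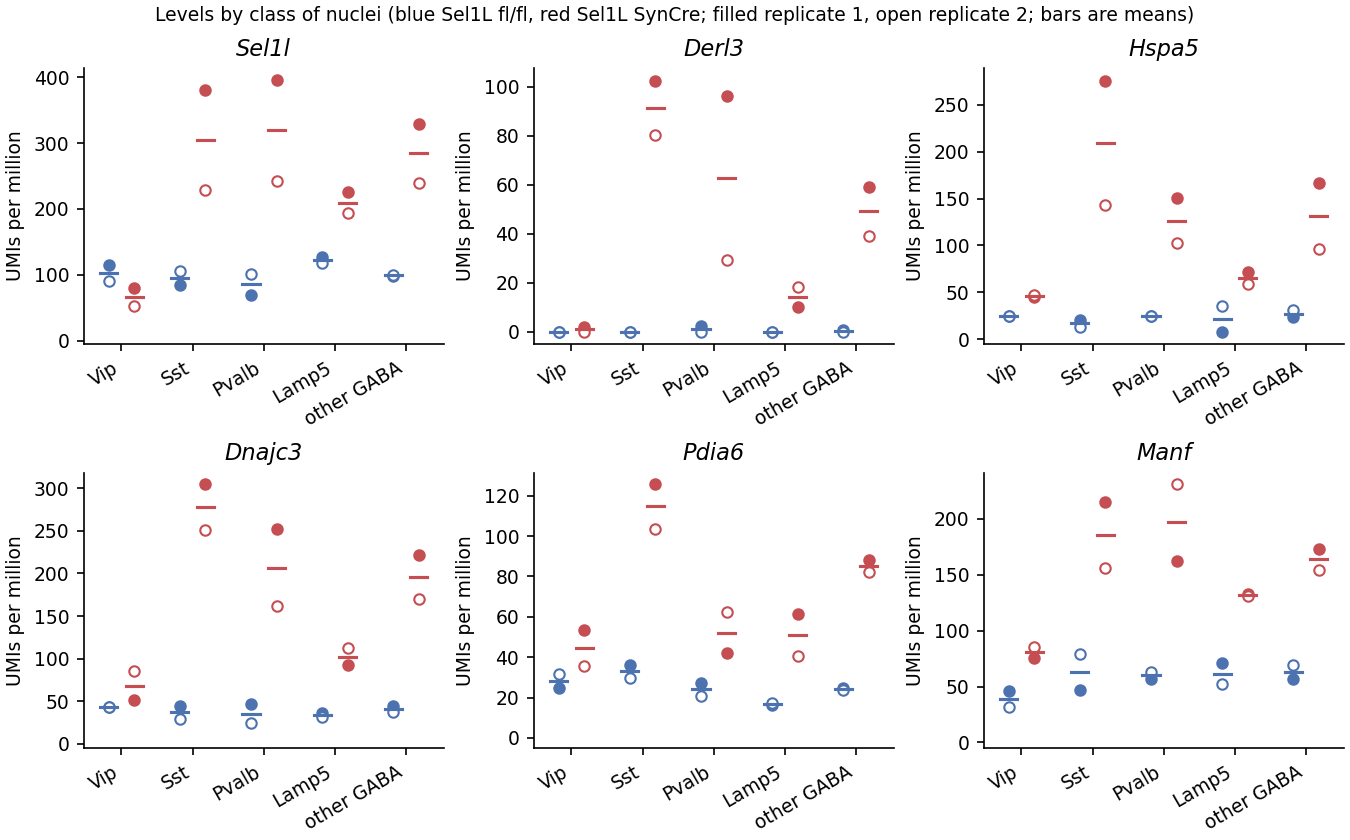
Levels of Sel1l, Derl3, Hspa5, Dnajc3, Pdia6 and Manf in CPM by nucleus class, with 1 point per library and colour for genotype. In Sst nuclei Derl3 stands at 102 and 80.2 CPM in the SynCre libraries, and in Vip nuclei at 2.05 and 0 CPM. Sel1l is at 194 CPM or more in the SynCre libraries of every class but Vip.

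Of 25 ERAD symbols listed, some of them spellings of the same gene, 12 could be tested in members, and 0 passed (0.0427% over all genes tested). Their median log2 fold change was -0.12 beside -0.0012 over all genes tested. Ube2j1, the ubiquitin-conjugating enzyme that works with HRD1, had 25, 18, 27 and 27 UMIs (log2 fold change 0.52, adjusted p = 0.725), and Vcp, the ATPase that pulls substrates from the membrane, had 39, 29, 14 and 26 (-0.56, adjusted p = 0.725). Erlec1, a lectin that brings glycoproteins to SEL1L, had 46, 30, 41 and 47 UMIs (0.42), March6, another ER ubiquitin ligase, 60, 55, 32 and 47 (-0.35), and Faf2, an adaptor for VCP, 41, 27, 20 and 22 (-0.49). None of these passed. Among other GABA nuclei of the same mice, 7 of 23 ERAD genes were called higher, where 0.986% of 14812 genes tested were. In Sst nuclei 3 of 17 were, where 0.677% of 6939 were. Other GABA nuclei held 10744547, 5352982, 5765184 and 5881764 UMIs, against 603704, 440899, 487961 and 420993 in members. The part of this depth in the counts of calls was not tested. For each list below, too, the share past the threshold over all genes tested in members was 0.0427%.

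ER chaperones and folding enzymes had the largest gap between the medians of Vip and other GABA nuclei among the 12 lists. These medians cover different genes, 17 in Vip and 27 in other GABA nuclei, and the gap was not tested. Of 29 symbols listed, some of them spellings of the same gene, 17 could be tested in members, and 0 passed (0.0427% over all genes tested). At an unadjusted p under 0.05 there were 2 (7.89% over all genes tested), and the median was 0.05. Hspa5, which encodes BiP, the main ER chaperone, had 15, 11, 22 and 20 UMIs in members, a log2 fold change of 0.88 (SE 0.36, adjusted p = 0.542). Manf, a secreted ER stress factor, had 28, 14, 37 and 36 UMIs, the smallest p of the list (1.00, SE 0.30, unadjusted p = 0.00354, adjusted p = 0.293). In both genes the SynCre members stood above the fl/fl members without passing. Dnajc3, a cochaperone of BiP, had 26, 19, 25 and 36 UMIs (0.64, adjusted p = 0.663), Pdia6, a disulfide isomerase, 15, 14, 26 and 15 (0.68, adjusted p = 0.710), Canx, the lectin chaperone calnexin, 39, 39, 42 and 27 (-0.01) and Uggt2, a glucosyltransferase of glycoprotein folding, 107, 96, 107 and 79 (0.05). In other GABA nuclei 19 of 27 chaperones were called higher (0.986% over all genes), with a median of 1.26, among them Hspa5 at 2.22 (adjusted p = 0.00486), Dnajc3 at 2.19 (adjusted p = 0.00151) and Pdia6 at 1.74 (adjusted p = 0.00151). In Sst nuclei 10 of 23 were called higher (0.677% over all genes). The difference between other GABA and Vip nuclei was not past the threshold for Hspa5 (1.38, adjusted p = 0.513). Nor was it for Dnajc3 (1.57, adjusted p = 0.239) or Pdia6 (1.10, adjusted p = 0.598). A weaker change of these genes in Vip nuclei was thus not shown. Manf overlaps Rbm15b on the same strand and Dcaf1 on the opposite strand.

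Promoters of UPR target genes often carry an ER stress response element (ERSE), here the letters CCAAT, then any 9 bases, then CCACG, searched on both strands in the 250 bases before each gene's start. It was found in 37 of 32851 RefSeq promoters (0.113%), and in 10 of 41 ERAD, chaperone and UPR genes with a promoter entry (24.4%). Among these 10 were Derl3, Hspa5 and Dnajc3, whose matches are shown, and Pdia6 and Canx (log2 fold change 0.68 and -0.01 in members), whose matches are not. The sequences are from RefSeq for GRCm38.p6, 5′ to 3′ on the plus strand, with the matched letters in capitals and 5 bases on each side.
Derl3: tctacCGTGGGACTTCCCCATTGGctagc
Hspa5: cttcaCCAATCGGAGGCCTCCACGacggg
Dnajc3: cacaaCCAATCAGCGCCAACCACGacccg
They lie at chr10:75893237-75893265, chr2:34772020-34772048 and chr14:118937822-118937850, and the matched letters end 137, 46 and 86 bases before the gene's start in RefSeq. In GENCODE vM21, the source of the gene coordinates given elsewhere here, Hspa5 starts at chr2:34771970, so its match lies inside the gene there. No match was found for Sel1l in its window, for these letters or for the related element ATTGG, any base, CCACG, which 10 promoters held (0.0304%), among them Herpud1. A match describes letters in a window and does not show that a factor binds there.

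**Figure D4:**
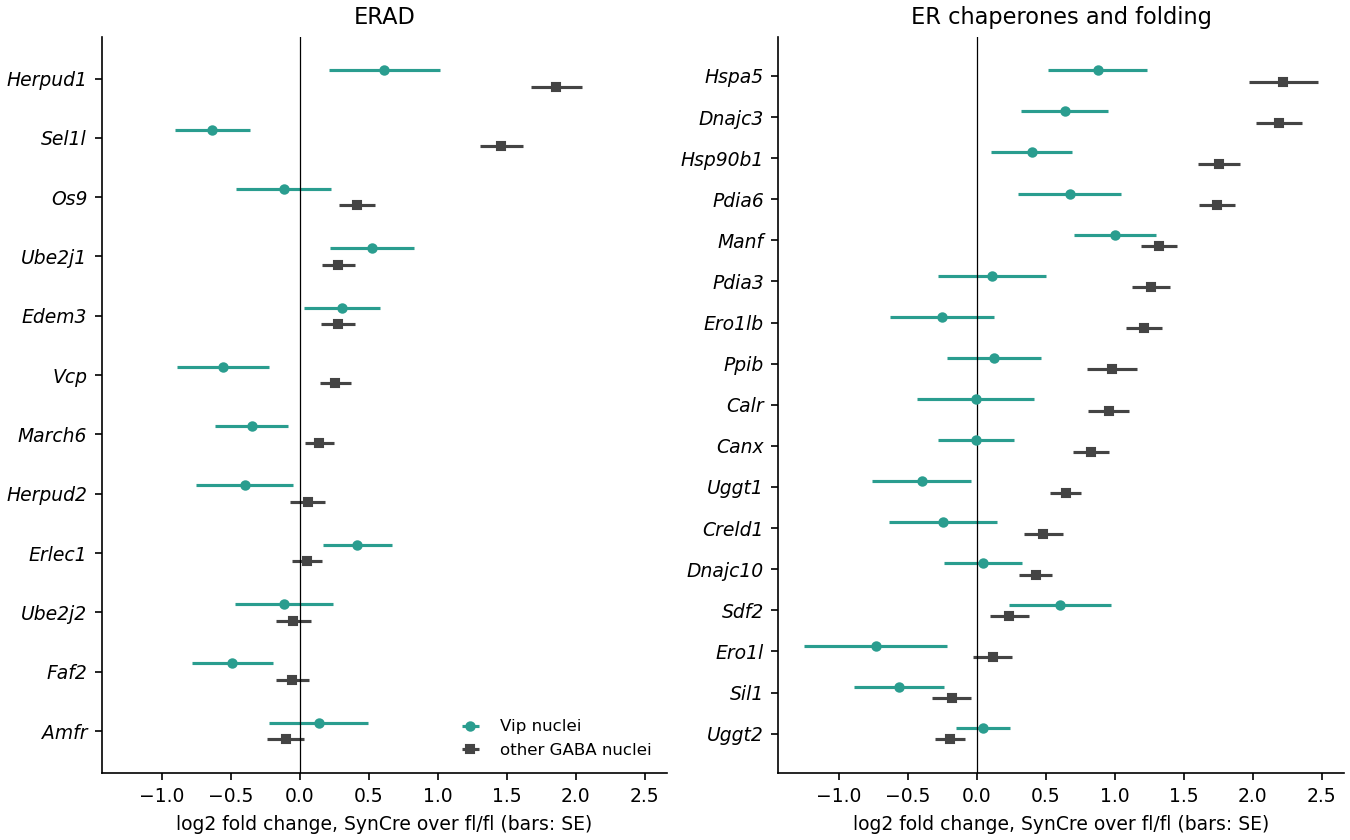
Log2 fold change of Sel1L SynCre over Sel1L fl/fl with its standard error for ERAD genes and ER chaperones, in Vip nuclei and in other GABA nuclei of the same mice. Hspa5 lies at 0.88 in Vip nuclei and 2.22 in other GABA nuclei, and Sel1l at -0.63 and 1.46.

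The regulators of the UPR gave 11 testable genes of 24 listed, with 0 past the threshold and a median log2 fold change of 0.08. Eif2ak3, which encodes the stress sensor PERK, had 12, 6, 19 and 13 UMIs in members (1.02, SE 0.43, adjusted p = 0.585), and Eif2ak4, which encodes the amino acid sensor GCN2, 41, 25, 43 and 43 (0.58, adjusted p = 0.586). Xbp1, the transcription factor spliced by IRE1, had 16, 5, 14 and 15 UMIs (0.67, adjusted p = 0.763), Atf4, the effector of PERK, 11, 9, 14 and 12 (0.56, adjusted p = 0.788), and Atf6, the membrane-bound sensor, 49, 26, 27 and 30 (-0.18, adjusted p = 0.933). The counts of Xbp1 and Atf4 were too low to show a small difference. Of these genes 6 of 23 were called higher in other GABA nuclei (0.986% over all genes), Xbp1 among them at 1.34 (adjusted p = 0.00864). The Xbp1 difference between other GABA and Vip nuclei was 0.70 (adjusted p = 0.830), which did not pass.

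ATF4 targets that supply amino acids gave 9 testable genes, with 0 past the threshold, 3 at an unadjusted p under 0.05 (7.89% over all genes tested) and a median of 0.09. Their directions were mixed. Slc38a2, a neutral amino acid transporter, had 47, 24, 48 and 69 UMIs (log2 fold change 0.94, SE 0.27, adjusted p = 0.289), and Slc7a1, a transporter of cationic amino acids, 15, 12, 21 and 20 (0.79, adjusted p = 0.619). Asns, asparagine synthetase, had 16, 15, 7 and 6 UMIs (-1.05, SE 0.46, adjusted p = 0.596), and Gpt2, mitochondrial alanine transaminase, 15, 17, 7 and 8 (-0.90, adjusted p = 0.668). Slc3a2, the partner chain of amino acid exchangers, had 34, 33, 32 and 31 UMIs (0.09). Of the list, 9 of 20 were called higher in other GABA nuclei (0.986% over all genes), Gpt2 among them at 0.94 (adjusted p = 0.0163), with a median of 0.98. The Gpt2 difference between other GABA and Vip nuclei was 1.88 (adjusted p = 0.239), which did not pass. Slc38a2 passed the threshold in members without the fl/fl library that carried Cre (1.25, adjusted p = 0.0326) and without SynCre replicate 1 (1.24, adjusted p = 0.00512), but not without fl/fl replicate 2 (0.71, adjusted p = 0.451) or SynCre replicate 2 (0.56, adjusted p = 0.690).

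Cytosolic aminoacyl-tRNA synthetases, which charge tRNAs, gave 16 testable genes with 0 past the threshold. At an unadjusted p under 0.05 there were 0 (7.89% over all genes tested), and the median was -0.08. Xpot, a tRNA exporter kept in this list, had the smallest p, with 27, 17, 15 and 12 UMIs (log2 fold change -0.50, adjusted p = 0.770). Lars, the leucine enzyme, had 79, 61, 67 and 48 UMIs (-0.10), Nars, for asparagine, 58, 45, 48 and 37 (-0.09), Yars, for tyrosine, 33, 33, 24 and 20 (-0.41), Hars, for histidine, 18, 12, 12 and 6 (-0.54), and Farsa, for phenylalanine, 25, 13, 19 and 4 (-0.53). Other GABA nuclei had 2 of 21 called higher (0.986% over all genes). Of the genes of serine, folate and methionine metabolism, which carries one-carbon units, 9 of 23 listed could be tested in members and 0 passed, with a median of -0.36. Aldh1l2, the mitochondrial formyl-tetrahydrofolate dehydrogenase, had 22, 11, 3 and 7 UMIs (-1.49, SE 0.52, unadjusted p = 0.0111, adjusted p = 0.437). Aldh1l2 rose in other GABA nuclei of the same mice by 1.73 (adjusted p = 0.0310), and the difference between the changes was 3.30 (adjusted p = 0.115), which did not pass. Mthfd1, a cytosolic folate enzyme, had 18, 19, 4 and 15 UMIs (-0.76), Mat2a, which makes S-adenosylmethionine, 92, 48, 79 and 71 (0.32), and Ahcyl1, related to adenosylhomocysteinase, 56, 37, 61 and 45 (0.38). Of this list, 4 of 22 genes were called higher in other GABA nuclei (0.986% over all genes).

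Among identity genes and peptides, 18 genes outside the rule were tested between genotypes and 0 passed, with 4 at an unadjusted p under 0.05, all on the higher side, where 7.89% of all genes tested reached that p, and a median of 0.47 over these 18 genes. Htr3a gave a log2 fold change of 1.49 (SE 0.49, adjusted p = 0.392). Cck had 29, 23, 68 and 28 UMIs (1.06, SE 0.32, adjusted p = 0.319), and Mybpc1, a muscle protein gene also found in Pvalb nuclei, 13, 12, 30 and 20 (1.18, SE 0.36, adjusted p = 0.319). Reln, the secreted protein reelin, had 23, 26, 68 and 40 UMIs (1.30, SE 0.29, adjusted p = 0.111). For these genes the SynCre libraries were the higher ones. Reln is also a marker of Lamp5 neurons, and the 5 markers of that class summed to 58.0, 77.1, 166 and 107 CPM in members, with Reln the most abundant in each library. The others were low: Lamp5 had 6, 1, 4 and 0 UMIs, Ndnf 0, 0, 1 and 0, Sv2c 0, 1, 2 and 2, and Id2 6, 6, 6 and 3. The part of Lamp5-class nuclei in the Reln values was not tested, and with a Vip minimum of 1 UMI the Reln value turned to -0.43. Synpr (-0.12), Pcdh15 (-0.01) and Igf1 (-0.09) differed little on the log2 scale. Vip and Adarb2 chose the nuclei, so their values between genotypes (454, 353, 403 and 464 UMIs, and 9369, 5693, 9121 and 5831) are given with no test.

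Of 24 interneuron transcription factors, 17 were tested and 0 passed, with 4 at an unadjusted p under 0.05 (7.89% over all genes tested) and a median of -0.03. Nr2f2 and Nr2f1, nuclear receptors of cells from the caudal eminence, had 21, 16, 31 and 41 UMIs (log2 fold change 1.15, SE 0.31, adjusted p = 0.225) and 25, 18, 33 and 32 UMIs (0.79, adjusted p = 0.480). Sox6, needed by interneurons of the medial eminence, had 14, 33, 5 and 0 UMIs (-3.03, SE 0.75, adjusted p = 0.152), with 25 of the 33 in 1 nucleus. Sox6 passed without fl/fl replicate 1 (-3.70, adjusted p = 6.77e-07) and without SynCre replicate 1 (-7.52, adjusted p = 3.96e-05), where the SynCre library left has 0 UMIs and the size depends on the prior count. It did not pass without fl/fl replicate 2 (-2.06, adjusted p = 0.164), the library of that nucleus, or without SynCre replicate 2 (-2.14, adjusted p = 0.0578). Nfia had 45, 44, 14 and 28 UMIs (-0.89, adjusted p = 0.486), Npas3 1530, 922, 1519 and 954 (0.21) and the receptor gene Erbb4 5713, 4110, 4267 and 3484 (-0.15). Of 5 Sst class markers, Elfn1 was the most abundant in members, with 71, 64, 72 and 45 UMIs, and Npy had 14, 12, 20 and 16, Lhx6 4, 0, 0 and 0 and Chodl 0, 0, 0 and 1. Sst itself, which the rule limited, had 2, 2, 2 and 1 UMIs. None of the 24 genes was called in either direction in other GABA nuclei.

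Genes of GABA synthesis, release and synapses gave 18 tests outside the rule with 0 past the threshold. At an unadjusted p under 0.05 there were 0 (7.89% over all genes tested), and the median was 0.01 over these 18. Gabra2, a GABA-A receptor subunit, had 85, 75, 57 and 53 UMIs (log2 fold change -0.36, adjusted p = 0.725). Slc6a11, a GABA transporter, had 8, 15, 20 and 13 UMIs (0.68), Gabrg3, a receptor subunit, 839, 517, 616 and 526 (-0.04), and Gphn, the scaffold gephyrin, 567, 416, 492 and 439 (0.12). Of 24 receptors for serotonin, acetylcholine and noradrenaline, 10 were tested and 0 passed, with 3 at an unadjusted p under 0.05 (7.89% over all genes tested) and a median of 0.11. Beside Adra1b and Htr3a, already given, these were Chrna5, a nicotinic subunit, at 22, 13, 6 and 9 UMIs (-1.01, adjusted p = 0.608). Adra1a, the alpha-1A adrenergic receptor, had 121, 93, 86 and 58 UMIs (-0.39), the muscarinic receptor Chrm3 540, 405, 477 and 413 (0.10) and Htr2c 195, 191, 214 and 125 (-0.03).

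Activity genes had the highest median of the 12 lists in members, 0.50, with 11 genes tested, 0 past the threshold and 4 at an unadjusted p under 0.05 (7.89% over all genes tested), all on the higher side. Nr4a1, an immediate-early nuclear receptor, had 29, 13, 35 and 60 UMIs (log2 fold change 1.40, SE 0.34, adjusted p = 0.149). Vgf, a secreted neuropeptide precursor, had 13, 11, 22 and 19 UMIs (0.95, adjusted p = 0.511), Scg2, the granin secretogranin II, 30, 25, 41 and 35 (0.65, adjusted p = 0.542) and Homer1, a postsynaptic scaffold, 52, 31, 47 and 58 (0.55, adjusted p = 0.615). In each of these the genotypes did not overlap, which held for 37.6% of all genes tested, and none passed. Pcsk1, a prohormone convertase, had 46, 24, 48 and 37 UMIs (0.49). Nr4a1 passed without the fl/fl library that carried Cre (1.83, adjusted p = 0.00167) and without SynCre replicate 1 (1.80, adjusted p = 2.58e-05), but not without fl/fl replicate 2 (1.10, adjusted p = 0.153) or SynCre replicate 2 (0.86, adjusted p = 0.488). In other GABA nuclei 4 of 26 activity genes were called higher (0.986% over all genes), Scg2 among them at 1.48 (adjusted p = 0.0135) and Vgf at 1.10 (adjusted p = 0.0446). Of 19 genes of apoptosis and p53, 5 were tested in members and 0 passed: Bcl2l1 had 21, 10, 24 and 20 UMIs (0.71), Bax 7, 10, 12 and 15 (0.84), Bcl2 46, 20, 48 and 24 (0.33) and Mdm2 13, 17, 12 and 19 (0.23).

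Several other genes differed in their change between Vip nuclei and another class. Prkd1, protein kinase D1, had 99, 62, 123 and 74 UMIs in members and 50, 21, 9 and 8 in Sst nuclei, a difference of -2.47 (Sst minus Vip, SE 0.37, adjusted p = 0.00750), and -3.27 (adjusted p = 0.0325) against Pvalb nuclei with 17, 9, 1 and 1. In Vip nuclei Prkd1 lay at 0.48 on the log2 scale and did not pass. With any 1 library left out both Prkd1 calls were lost, at -2.52 to -2.40 against Sst nuclei and -3.31 to -3.24 against Pvalb nuclei. Without nuclei that held markers of other classes the Prkd1 differences were -2.96 (adjusted p = 0.0575) and -2.28 (adjusted p = 0.786). Scg2 had 9, 9, 62 and 97 UMIs in Sst nuclei, a difference of 2.38 (adjusted p = 0.0271). The Scg2 call, too, was lost with any 1 library left out, at 2.00 to 2.71. Without nuclei that held markers of other classes Scg2 lay at 2.04 (adjusted p = 0.228). Epb41, a protein of the membrane skeleton, had 15, 13, 6 and 0 UMIs in members and 38, 15, 78 and 53 in Sst nuclei, a difference of 3.42 (adjusted p = 0.0271). Creb5, a transcription factor, had 22, 9, 35 and 34 UMIs in members, 33, 24, 1 and 4 in Pvalb nuclei (Pvalb minus Vip -4.15, adjusted p = 0.0201) and 287, 194, 71 and 91 in other GABA nuclei (-2.53, adjusted p = 0.0478). Creb5 thus ran in opposite directions, at 1.36 in Vip nuclei, which did not pass, and -1.23 (adjusted p = 0.0215) in other GABA nuclei. Bcar3 ran the other way, at -1.29 in members and 1.14 in other GABA nuclei, neither of which passed, with 76, 52, 131 and 88 UMIs in the latter (difference 2.47, adjusted p = 0.0176). Reln lay at -0.52 in other GABA nuclei and 1.30 in members, neither of which passed (difference -1.79, adjusted p = 0.0478). Against Lamp5 nuclei, where no gene passed, Reln lay at -2.30 (adjusted p = 0.186). Gpt2 came next to the threshold against Sst nuclei (3.01, adjusted p = 0.0562). Grm7, a presynaptic glutamate receptor, had 1434, 1318, 1224 and 1051 UMIs in members and 140, 140, 5 and 24 in Pvalb nuclei (-2.52, adjusted p = 0.0325). When any library was left out, 0 genes passed against other GABA nuclei, 0 to 7 against Sst nuclei and 1 to 8 against Pvalb nuclei, so the calls against other GABA nuclei rest on all 4 libraries. Without the fl/fl library that carried Cre, Creb5 still passed against Pvalb nuclei (-4.82, adjusted p = 0.0351), but not when any of the other 3 libraries was left out (adjusted p from 0.0915 to 0.155), while Prkd1 (-2.40), Epb41 (3.78) and Scg2 (2.00) did not pass against Sst nuclei (adjusted p from 0.145 to 0.329), nor Grm7 against Pvalb nuclei (-2.73, adjusted p = 0.0601). With 1 library left out, Epb41 kept its call only without SynCre replicate 1 (7.37, adjusted p = 0.0410), where the SynCre library of members left has 0 UMIs and the size depends on the prior count, and lost it without fl/fl replicate 2 (3.12, adjusted p = 0.340) or SynCre replicate 2 (2.86, adjusted p = 0.0929).

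For the number of genes called, members stood beside Sst nuclei with 63 of 6939 (0.908%), Pvalb nuclei with 80 of 5233 (1.53%, and 1.07% lower in SynCre), Lamp5 nuclei with 0 of 4919 (0%, and 328 at an unadjusted p under 0.05 by edgeR) and other GABA nuclei with 217 of 14812 (1.47%). Other GABA nuclei had over 10 times the UMIs of members, so the counts were also taken after thinning the gated classes to the smallest total, 166475 UMIs per library. At that depth 0 genes were called in Vip nuclei (244 at an unadjusted p under 0.05), 16 in Sst nuclei, 17 in Pvalb nuclei and 0 in Lamp5 nuclei. The difference between these counts was not tested as such.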

How the data were processed

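Per the labels, nuclei of 1 mouse per library were sorted and sequenced with the 10x 3′ v3 chemistry. The authors deposited UMI counts per gene and barcode, and the submitters' processing notes name Cell Ranger 6.1.0 and GRCm38. All 32286 features were used. Their coordinates are those of GENCODE vM21 (32235 matched). Nuclei were gated by the UMI rule stated at the start, with no clustering and no doublet caller. Members with 5 or more UMIs summed over markers of excitatory neurons, glia and endothelium, or with over 2.5 times the median UMIs, were left out as alternatives. Counts were summed per library and class and tested with edgeR 4.0.16 (R 4.3.3; TMM, filterByExpr, quasi-likelihood, prior count 0.125, Benjamini-Hochberg at 0.05). Sst, Pvalb and Lamp5 gates required 5, 3 and 3 UMIs of the named gene. Differences between classes came from 16 sums with library as a block (8 for other GABA nuclei). DESeq2 1.42.0, scipy 1.17.1 (exact permutation tests, Wilson 95% intervals) and thinning were used too. The scripts for tests were tested on simulated data. Named genes were those called, the next by p to 10 in each direction (at least 20 UMIs, no overlap), up to 6 in each direction by class difference, the 4 of smallest p and 2 most abundant in each list, the 12 most separating and all identity genes of at least 5 CPM. Members and lists were chosen with earlier results of these data known. Some genes are not reported here.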

Additional observations from a re-analysis of the deposited data

Results flagged for a closer look

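These genes are listed because their change between genotypes differed between Vip nuclei and another class in the test of the difference itself (log2, other class minus Vip, edgeR with adjustment over all genes tested). Against Sst nuclei they were Prkd1 (-2.47), Sel1l (2.27), Epb41 (3.42) and Scg2 (2.38). Against Pvalb nuclei they included Sel1l (2.502), Creb5 (-4.15), Grm7 (-2.52), Sema3a (4.57), March1 (-1.84), Prkd1 (-3.27), Pde4b (-3.12) and Egfem1 (-4.74). Sema3a had 12, 20, 3 and 2 UMIs in Vip nuclei and 13, 5, 21 and 25 in Pvalb nuclei. Pde4b, Egfem1 and Prkd1 had 1 or 2 UMIs in each SynCre library of Pvalb nuclei. In this comparison March1 (-1.97 to -1.67), Prkd1 (-3.31 to -3.24) and Pde4b (-3.51 to -2.48) lost the call with any 1 library left out. Sema3a (3.68 to 5.47), Grm7 (-3.68 to -2.05) and Egfem1 (-4.77 to -4.45) lost it without some libraries. Without nuclei that held markers of other classes, Egfem1 was -2.42 (adjusted p = 0.786), and Grm7, March1, Prkd1 and Pde4b did not pass. Sel1l, Creb5 and Sema3a still passed. Against other GABA nuclei they were Sel1l (2.14), Bcar3 (2.47), Creb5 (-2.53), Car10 (-1.31), Reln (-1.79) and C130073E24Rik (-1.12). Pde4b, Egfem1, Car10 and C130073E24Rik are given for this test alone.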

How the results depend on the processing

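For the 3 genes called in Vip nuclei, RLE factors gave 3, DESeq2 2, the legacy quasi-likelihood 3 and a prior count of 2 gave 3. No filter on low counts gave 0 (929 at an unadjusted p under 0.05), a minimum of 10 counts in every library 46, a gate of 5 Vip UMIs 1, a gate of 1 Vip UMI (chosen after seeing the data) 1, leaving out members with other-class markers 0 (380 at an unadjusted p under 0.05), leaving out those of high UMI totals 16, and thinning to equal totals 0. Leaving out 1 library gave 44 to 77, with all 3 genes among them each time; the remaining lone library was then assumed to vary like the other group. The labels do not say that replicate numbers pair mice, and deviations of same-numbered libraries correlated at 0.0841 (-0.0321 without sex-linked genes). Both replicate 1 libraries lacked Xist in members and both replicate 2 libraries had it, so a replicate block also separates libraries by Xist. Such a block gave 85 calls, the 3 included. With it 22 genes named in Vip nuclei came to pass, among them Nxph1 (adjusted p = 4.12e-14), Sox6, Reln, Nr4a1 and Slc38a2 (adjusted p = 0.0338). For differences between classes, 2 classes alone gave 9 (Sst), 16 (Pvalb) and 1 (Lamp5), DESeq2 0, 0 and, for other GABA nuclei, 11, leaving out members with other-class markers 0 (Sst), thinning 1 (Sst) and 3 (Pvalb), and a minimum of 10 counts 2 (Pvalb). Leaving out 1 library gave 0 to 7 (Sst), 1 to 8 (Pvalb), 0 to 2 (Lamp5) and 0 to 0 (other GABA nuclei, a comparison added after seeing the data). Thinning gave 16 calls in Sst and 17 in Pvalb nuclei. The causes of these differences were not tested.

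Mean shares of Vip nuclei with a UMI, at 4000 UMIs and unthinned, were 10.7% and 22.3% (Calb2), 20.4% and 31.6% (Cck), 11.6% and 23.2% (Crh), 9.11% and 17.1% (Htr3a), 69.3% and 87.3% (Igf1), 8.14% and 11.9% (Chat), and 15.2% and 23.3% (Tac2); unthinned, Penk had 15.6% and Cre 1.11%; with 5 Vip UMIs and thinning to 2000, Calb2 had 10.5% and Chat 7.91%. Signs that turned all belonged to genes that did not pass (log2). A gate of 1 Vip UMI gave Reln -0.43, Nars 0.0803 and Htr2c 0.0231. A gate of 5 gave Pcdh15 0.11 and Gabrg3 0.0828. Leaving out members with other-class markers gave Canx 0.0469, Nars 0.0835, Pcdh15 0.32, Npas3 -0.0755, Gabrg3 0.17 and Gphn -0.0246, and leaving out high totals Pcdh15 0.0798. Thinning gave Nars 0.25, Gphn -0.0617, Chrm3 -0.0258, Htr2c 0.12 and Bcl2 -0.0059, and Canx stood at 7.06e-05 with 10 counts and 0.0042 with the block. Leaving out 1 library gave Uggt2 -0.11 to 0.17, Canx -0.27 to 0.20, Atf6 -0.40 to 0.0955, Slc3a2 -0.11 to 0.27, Farsa -1.94 to 0.12, Lars -0.28 to 0.0418, Nars -0.21 to 0.00358, Pcdh15 -0.0928 to 0.0678, Npas3 -0.0705 to 0.44, Gabrg3 -0.18 to 0.10, Htr2c -0.38 to 0.23, Bcl2 -0.17 to 0.80 and Mdm2 -0.23 to 0.63. Of the values recomputed for genes named in Vip nuclei, 1093 kept sign and side of the threshold, 97 came to pass, 12 no longer passed and 37 turned sign. For class differences 52 kept their call and 104 lost it, and none turned sign. The share of Vip nuclei among GABA nuclei itself moved with the gate (means of 5.42% and 6.68% with 5 Vip UMIs, where the genotypes did not overlap, exact permutation test, p = 0.333, 10.5% and 10.8% with 1, and 2.36% and 3.31% with thinning before the gate), and its difference between genotypes stayed between 0.227 and 1.35 percentage points. At 420993 to 603704 UMIs per library of members, genes of under 20 UMIs could show large changes only.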
